A study of Mus musculus with 4 samples.

Results

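The calcium cycling genes of heart muscle were followed here as 10 genes out of the 25044 in the files. They were chosen by name for their known roles: Atp2a2, Pln, Ryr2, Casq1, Casq2, Sln, Slc8a1, Cacna1c, Hrc and S100a1. The RNA came from mouse hearts at 12 weeks of age, in 4 stranded poly(A) libraries, each a pool of 3 hearts and the only library of its group. Mice of the cMyBP-CΔC10mut line, which carry a transgene with a 25-bp variant of MYBPC3 and model hypertrophic cardiomyopathy, gave dC10mut; their nontransgenic counterparts gave NTG, and C57BL/6 is the strain label of both. A model of dilated cardiomyopathy, cMyBP-C(t/t), gave tt, and its control mice gave control, with FvB/N as the strain label of both. MYBPC3 encodes cardiac myosin binding protein C of the thick filament. The labels name no promoter for the transgene. The library totals were 170543 counts in NTG and 187365 in dC10mut, and 176633 in control and 186420 in tt. The Xist locus is transcribed in females, and its counts here sum the rows of Xist and of Tsix, the gene on its opposite strand. It held 155 counts in dC10mut and 173 in tt and 0 in NTG and control. Genotype and sex of the pools thus cannot be told apart, within a pair or over both pairs. With 1 library a group no difference has a replicate check, and each interval below covers counting error only.

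With each beat, calcium enters the heart muscle cell through the L-type channel, whose pore is encoded by Cacna1c, and opens the ryanodine receptor Ryr2 in the sarcoplasmic reticulum, which releases much more calcium onto the myofilaments. Relaxation follows when the pump SERCA2, encoded by Atp2a2, returns calcium to the reticulum and the exchanger encoded by Slc8a1 carries it out of the cell. Phospholamban (Pln) and sarcolipin (Sln) are small membrane proteins that hold the pump back, S100a1 is a calcium sensor that binds the pump and the ryanodine receptor, and calsequestrin (Casq2 in heart, Casq1 mainly in skeletal muscle) and the histidine-rich calcium binding protein Hrc bind calcium inside the reticulum.

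Only 4 of the 10 genes held enough counts to be compared. Hrc held between 472 and 660 counts in a library, Ryr2 between 129 and 201, S100a1 between 70 and 119, and Casq1 between 5 and 28. Atp2a2 and Pln held between 0 and 3 counts. Casq2, Sln, Slc8a1 and Cacna1c held 0 counts in every library. A count of 0 allows up to 3 counts, or between 2.81 and 3.38 on the scale used below. In heart tissue several of these uncounted genes are known to be abundantly expressed, and whether the low rows follow their expression was not tested.

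The split followed how many transcripts the files list for a gene. Counts are given per RefSeq transcript, and the 10 genes have 27 transcripts. Of the 5 genes with a single transcript, 4 held at least 10 counts in a library, and the exception was Sln. The 5 genes with 2 or more transcripts (Pln and Casq2 with 2, Atp2a2 with 3, Slc8a1 with 4 and Cacna1c with 11) held at most 3 counts. A similar split appeared in 18 abundant heart muscle genes, which were picked after values were seen and so are no independent check. All 9 with a single transcript held at least 10 counts, from Cmya5 with at most 140 upward. Of the 9 with more, 3 did so: Cryab, with 4 transcripts and 739 to 1038 counts, Myh7 with 11 to 27 and Ttn with 7 to 11. Tnnt2, Tpm1, Ldb3 and Myl3, which encode troponin T, tropomyosin, a Z-disc protein and a myosin light chain, held 0 in every library. Over all genes, 13.1% of those with 1 transcript and 2.81% of those with more held at least 10 counts in a library, and the former held 85.7% of all counts.

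**Figure D1:**
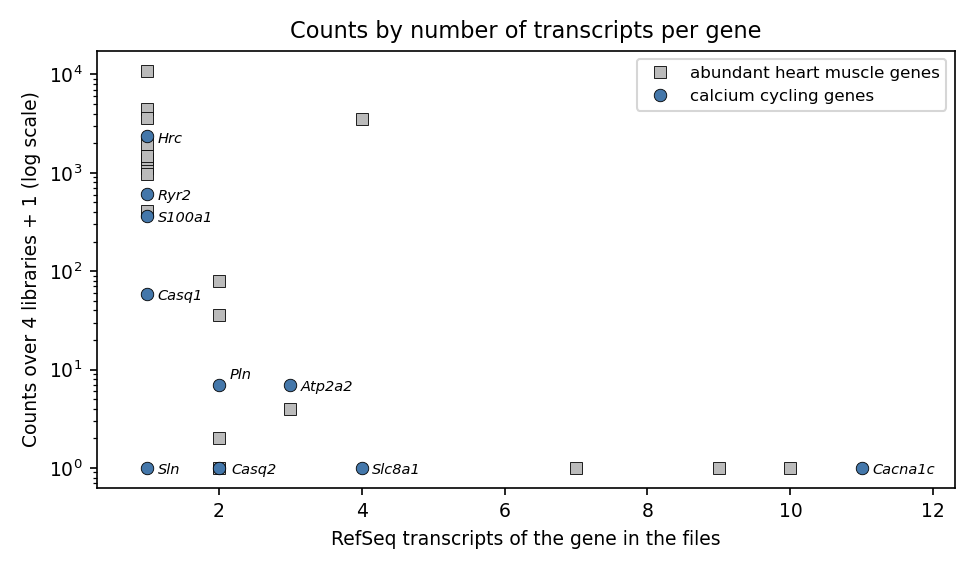
Counts of each gene summed over the 4 libraries, plus 1, on a log axis, against the number of RefSeq transcripts that the files list for it; circles are the 10 calcium cycling genes and squares 18 abundant heart muscle genes. The 4 calcium cycling genes with more than a few counts all have 1 transcript, and Sln is the single-transcript gene at 0.

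Atp2a2 shows the split within a gene (GRCm38, chromosome 5, 122453513 to 122502225, minus strand). Its 2 coding transcripts, NM_009722 and NM_001110140, held 0 counts in all 4 libraries. On the GENCODE models, 0 of the 3984 exonic bases of NM_009722 and 51 of the 4486 of NM_001110140 lie in no other listed transcript of the gene. The transcript that did hold counts, annotated as subject to nonsense-mediated decay, has 448 such bases of 5674 and held 3 counts in NTG and 0 in dC10mut, and 2 in control and 1 in tt. These values are too few for a comparison, and no statement on the pump's expression in either model can be made from them.

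Own sequence did not by itself give counts. The Slc8a1 transcript NM_001112798 has 14974 bases in no other placed transcript, the Cacna1c transcript NM_009781 has 5079 and the Pln transcript NM_023129 has 1716, and each held 0 counts in every library. The other Pln transcript held 2 counts in NTG, 0 in control, and 2 each in dC10mut and tt, with 153 bases of its own. Both pump inhibitors are encoded by very short reading frames, shown here because the whole frame of Pln lies in both of its transcripts whereas that of Sln lies in its only one. They are read from the GRCm38 transcripts on the plus strand, at chr10:53343864-53344022 for Pln and chr9:53853473-53853568 for Sln, with start and stop codons in capitals.
Pln: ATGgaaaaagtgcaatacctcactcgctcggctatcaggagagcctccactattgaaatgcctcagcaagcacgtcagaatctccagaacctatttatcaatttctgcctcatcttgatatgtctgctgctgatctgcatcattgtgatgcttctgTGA
Sln: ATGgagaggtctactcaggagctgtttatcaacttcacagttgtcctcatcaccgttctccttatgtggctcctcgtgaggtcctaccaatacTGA
The frame of Pln has 159 bases and encodes 52 residues, and that of Sln has 96 bases and encodes 31. A read within the Pln frame fits both transcripts, and how the counting treated such reads is not stated. Sln, by contrast, has no second transcript and still held 0 counts. In mice Sln is mainly an atrial gene, and 7 of the 8 atrial markers looked at, Sln and the single-transcript myosin light chain gene Myl7 among them, held 0 counts. The exception was Nppa, the atrial natriuretic peptide gene with 1 transcript, with 9 counts in NTG and 22 in dC10mut, and 60 in control and 16 in tt. Myl4, Dkk3, Stard10, Pam and Fgf12 have 2 or more transcripts, a class that held few counts, so their 0 counts cannot bear on atrial expression. The single-transcript markers Myl7 and Nppa differed, and why Sln held 0 counts was not tested.

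The strand of the counts bears on each value. The kit preserves strand, but no source used here says which strand setting the counting had. Of the genes that could be placed, 10.7% have an exon that faces another gene's exon. Their share of the counts of all placed genes was 61.6% in NTG and 58.4% in dC10mut, and 59.0% in control and 57.1% in tt. Ckm, the muscle creatine kinase and 1 of the most abundant messages of heart muscle, held between 290 and 432 counts in a library, whereas the noncoding A930016O22Rik opposite it held between 5781 and 7272. Map3k15 held between 11101 and 14012 counts, and Pdha1, the pyruvate dehydrogenase subunit gene opposite it, between 121 and 228. Whether a row holds reads of its own gene's strand or of the other strand was not tested. The values below are therefore counts of each row and are not equated with the level of the gene's mRNA. No exon of the 10 genes overlapped an exon of another gene in the files on either strand, as far as their transcripts could be placed.

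Hrc was the most counted of the 10 (GRCm38, chromosome 7, 45335290 to 45338974, plus strand, 6 exons and 2411 bases). Its counts were 595 in NTG and 660 in dC10mut, and 472 in control and 617 in tt, which is 670, 636, 468 and 578 after scaling each library to a common depth with TMM factors, which allow for a few genes taking a large share of the counts. The library control was lowest. In tt it was 1.23-fold higher than in control (log2 ratio 0.30, 95% interval 0.13 to 0.48). In dC10mut it did not differ from NTG beyond counting error (log2 ratio -0.07, -0.24 to 0.09). Control was 1.43-fold lower than NTG (log2 ratio -0.52, -0.69 to -0.34). This ratio between the control libraries of the 2 strain labels was larger in size than that of tt to control, but their intervals overlap in size. Both ratios use the same control library. With library totals they were -0.38 and 0.31.

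Ryr2, the release channel (chromosome 13, 11553102 to 12106945, minus strand, 105 exons and 16814 bases), stood apart in tt. Its counts were 129 in NTG and 144 in dC10mut, and 141 in control and 201 in tt, or 145, 139, 140 and 188 after scaling. The first 3 lay close together and tt was above them. The ratio of tt to control was 1.35-fold (log2 ratio 0.43, 0.11 to 0.75). The ratios of dC10mut to NTG (log2 ratio -0.06, -0.42 to 0.29) and of control to NTG (-0.05, -0.41 to 0.30) spanned equality.

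S100a1, the calcium sensor (chromosome 3, 90511034 to 90514392, minus strand, 3 exons and 677 bases), was the 1 member to differ in the hypertrophic pair. Its counts were 70 in NTG and 119 in dC10mut, and 97 in control and 76 in tt, or 78.8, 115, 96.3 and 71.2 after scaling. It was 1.45-fold higher in dC10mut than in NTG (log2 ratio 0.54, 0.10 to 0.99). In the dilated pair it was lower in tt, with an interval that just spanned equality (log2 ratio -0.43, -0.89 to 0.01). Control and NTG did not differ beyond counting error (log2 ratio 0.29, -0.17 to 0.75).

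Casq1, the skeletal muscle calsequestrin (chromosome 1, 172209894 to 172219868, minus strand, 11 exons and 1847 bases), held few counts. It held 10 in NTG and 5 in dC10mut, and 28 in control and 15 in tt. Each mutant library held fewer than its own control, and control held the most. The log2 ratio of tt to control was -0.96 (-1.99 to -0.03), that of dC10mut to NTG -1.14 (-3.12 to 0.46), and that of control to NTG 1.27 (0.22 to 2.51). Of the 11 skeletal muscle markers looked at, 7 held 0 counts in every library, among them the fast myosin heavy chain genes Myh1, Myh2 and Myh4. Atp2a1, the skeletal muscle pump, held 8, 6, 7 and 3 counts in NTG, dC10mut, control and tt.

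**Figure D2:**
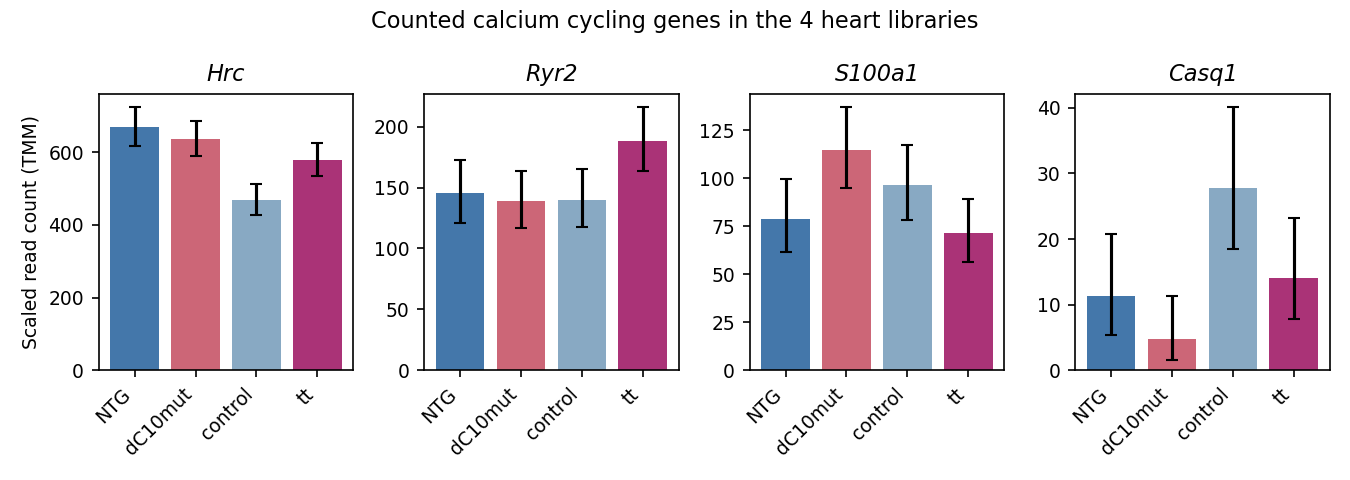
Scaled counts of Hrc, Ryr2, S100a1 and Casq1 in each library, with exact 95% Poisson intervals; each panel has its own linear axis from 0. Ryr2 is highest in tt (188), S100a1 in dC10mut (115), Casq1 in control (27.8), and Hrc is lowest in control (468).

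Per kilobase of transcript, Hrc remained the most counted, at 278 scaled counts per kilobase in NTG and 264 in dC10mut, and 194 in control and 240 in tt. S100a1 followed at 116, 169, 142 and 105 in the same order. The order of Ryr2 and Casq1 changed between libraries. Ryr2 held 8.64, 8.26, 8.32 and 11.2 per kilobase, and Casq1 6.09, 2.61, 15 and 7.61. Their counting intervals overlap in NTG and in tt, so the order is unsettled in both.

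Each ratio of the 4 counted members lay between the 5th and 95th percentiles of all genes with at least 10 counts, with 1 exception. That was Casq1 between control and NTG, at 1.27 beside a 95th percentile of 1.23. A gene was called 2-fold apart when its log2 ratio was at least 1 in size and its interval excluded equality. In the hypertrophic pair 0 of the 6 members with a count were so called, against 4.34% of 8033 genes, and in the dilated pair 0 of 6, against 4.27% of 8248. Between control and NTG it was 1 of 6, Casq1, against 3.09% of 8152. By the looser rule, an interval that excludes equality among genes with at least 10 counts, 1 of 4 members differed in the hypertrophic pair (25.2% of 2114 genes), 3 of 4 in the dilated pair (26.1% of 2253) and 2 of 4 between control and NTG (18.9% of 2069). This rule admits smaller differences at higher counts, and members and all genes were not matched for counts. The members' median log2 ratio was -0.07 in the hypertrophic pair and -0.06 in the dilated pair, where that of all genes with at least 10 counts was 0.01 and 0.00.

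**Figure D3:**
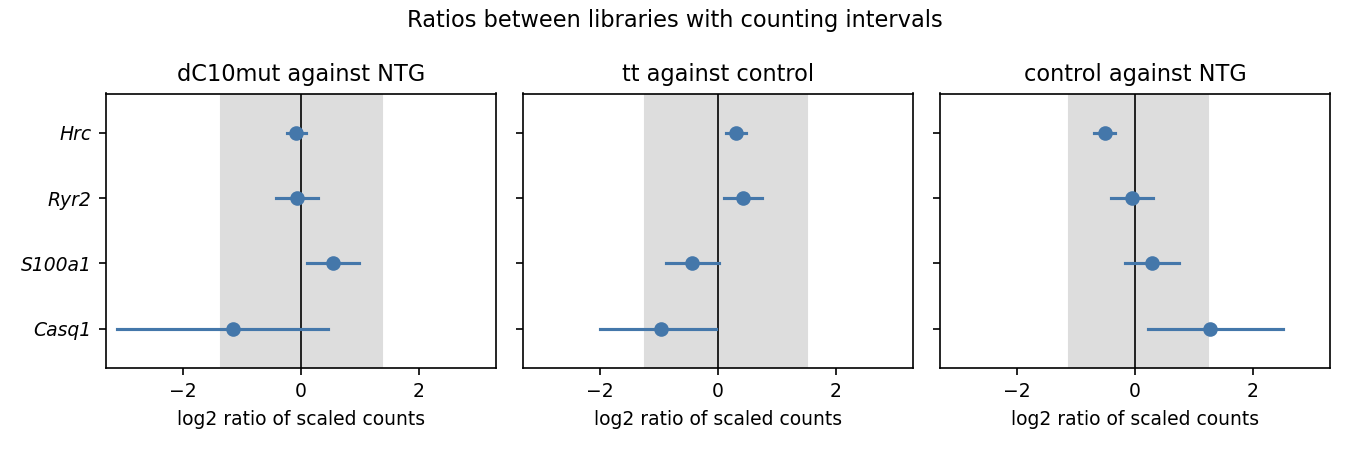
Log2 ratios of scaled counts with 95% counting intervals for the 4 counted genes in 3 comparisons; the grey band runs from the 5th to the 95th percentile of all genes with at least 10 counts in a library of the comparison. All points lie within the band except Casq1 between control and NTG (1.27).

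The 2 pairs together allow a test of a difference that both mutants share. Both mutant libraries held counts at the Xist locus and both control libraries held 0, so this test cannot tell genotype from sex. With edgeR's quasi-likelihood test and the pair as a block, 0 of 6 members passed at an adjusted p of 0.05, against 0.177% of the 7360 genes tested (13 genes). At an unadjusted p under 0.05 edgeR named 1 member, Casq1, and 321 genes in all. The log2 difference of Casq1 was -1.08, lower in both mutants, with an edgeR adjusted p of 0.998. DESeq2 called 0 genes after adjustment, and 43 genes but 0 members at an unadjusted p under 0.05. The test had 1 residual degree of freedom.

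S100a1 had ratios of opposite sign in the 2 pairs under every scaling tried. The ratios of Ryr2 and Hrc in the hypertrophic pair could not be told from 0, and their sign turned with the scaling: they were -0.06 and -0.07 with TMM factors and 0.02 and 0.01 with library totals. For S100a1 the log2 ratio was 0.97 higher in the hypertrophic pair (counting interval 0.37 to 1.58). For Ryr2 it was 0.49 lower (difference -0.49, -0.95 to -0.03) and for Hrc 0.38 lower (-0.38, -0.61 to -0.14). With 1 library a group, the difference between pairs has no test over animals.

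Transcript length moved with these ratios across the table. Over genes with 1 transcript, no opposite-strand exon and at least 10 counts, shorter transcripts had higher ratios in the hypertrophic pair and lower ratios in the dilated pair. The rank correlation across genes was -0.19 over 1215 genes and 0.28 over 1336, given as a description since genes of a library share its depth. Transcripts under 1000 bases, the class of S100a1, had a median log2 ratio of 0.44 in the hypertrophic pair (125 genes) and -0.41 in the dilated pair (121 genes). S100a1 itself stood at 0.54 and -0.43. Transcripts of 10000 bases or more, the class of Ryr2, had medians of -0.28 (23 genes) and 0.27 (34 genes), beside -0.06 and 0.43 for Ryr2. Those from 1000 to under 5000 bases, the class of Hrc and Casq1, had medians of 0.16 and 0.00. The part of length in the members' ratios was not tested.

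**Figure D4:**
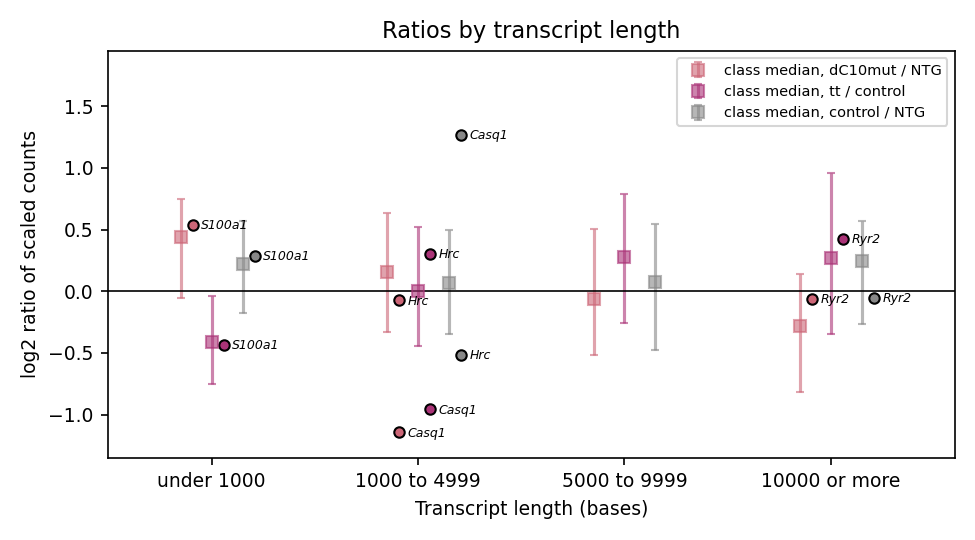
Log2 ratios by transcript length class for 3 comparisons, over genes with 1 transcript, no opposite-strand exon and at least 10 counts; squares are class medians with quartiles and circles the named members. S100a1 lies close to the median of transcripts under 1000 bases in both mutant pairs (0.54 beside 0.44, -0.43 beside -0.41).

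The genes with the most similar profile over the 4 libraries, by root mean square distance between centred log2 scaled counts among 397 other genes with at least 50 counts in each library, were as follows. For Ryr2 they were Txlnb (117, 118, 125 and 172 counts in NTG, dC10mut, control and tt), the muscle glycogen phosphorylase gene Pygm (93, 100, 108 and 137) and the ATP synthase gene Atp5a1 (352, 449, 389 and 593), at distances from 0.055 to 0.078. For S100a1 they were Plekhh1, the ATP synthase gene Atp5o and the cytochrome c oxidase gene Cox7a1 (83, 153, 131 and 103 counts), at 0.046 to 0.077. For Hrc they were Psme1, Acadvl and 4930549G23Rik, at 0.058 to 0.063. Each distance rests on 4 libraries.

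Around the members stand the other genes of calcium handling, taken as 10 lists with 157 distinct genes, of which 154 are in the files. They repeat the split by transcripts: 38 of 71 genes with a single transcript held at least 10 counts in a library, against 4 of 83 with more, and 67 held 0 throughout. At least 10 counts in the hypertrophic pair were held by 38 genes, members included. Of these 8 differed beyond counting error, all 8 higher in dC10mut and 0 lower (21.1%, beside 25.2% of all genes), and 28 of 38 had a positive ratio (median 0.27), where 50.3% of all 2114 genes did (median 0.01). In the dilated pair 15 of 38 differed, 8 higher and 7 lower in tt (39.5%, beside 26.1%), and 16 of 38 had a positive ratio (median -0.11), where 49.8% of all genes did. Between control and NTG 12 of 37 differed, 4 higher and 8 lower in control (32.4%, beside 18.9%), and 24 of 37 had a positive ratio (median 0.29), where 47.6% of all genes did (median -0.03). The median of the lists between the control libraries was thus about as high as that in the hypertrophic pair. Lists and all genes were not matched for transcript number, opposite-strand exons or length. Genes with 1 transcript, no opposite-strand exon and at least 10 counts had a hypertrophic-pair median of 0.44 under 1000 bases. It was 0.16 from 1000 to under 5000 bases, -0.06 from there to under 10000 and -0.28 at 10000 or more. The lists' 0.27 lay between the first 2. Between control and NTG the class medians ran from 0.06 to 0.25, beside 0.29 for the lists.

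In the release complex, triadin (Trdn), which anchors calsequestrin to the ryanodine receptor, held 92 counts in NTG and 109 in dC10mut, and 129 in control and 112 in tt, with intervals that spanned equality in both mutant pairs. Sarcalumenin (Srl) held 4, 13, 18 and 17 counts, also with intervals that spanned equality in both mutant pairs, but control exceeded NTG by 3.67-fold (log2 ratio 1.88, 0.39 to 4.01). Tecrl, a gene of inherited arrhythmia, held 6, 17, 7 and 9, and the interval of dC10mut over NTG spanned equality. Among the 5 genes of this list at 0 counts throughout were Fkbp1a and Fkbp1b, whose products bind ryanodine receptors. Among channel subunits 1 of 18 genes held at least 10 counts: Rrad, a small GTPase that restrains the L-type channel, with 31, 24, 30 and 25.

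Among the pumps and exchangers of the cell membrane, Atp1b1, the beta subunit of the sodium-potassium ATPase, held 44 counts in NTG and 86 in dC10mut, with a log2 ratio of 0.74 (0.20 to 1.30). In control it held 62 and in tt 79, and the interval of their ratio spanned equality (log2 ratio 0.27, -0.23 to 0.77). Atp1b1 faces Nme7 on the other strand.

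Of calcium signalling genes, Calm3, a calmodulin gene, had 18 counts in dC10mut against 5 in NTG (log2 ratio 1.54, 0.14 to 3.41), and Ppp3r1, the regulatory subunit of calcineurin, 5 and 17 (1.46, 0.04 to 3.34). Camk1, a calmodulin-dependent kinase gene that faces Ogg1, was lower in tt (26 and 12 counts, -1.16, -2.32 to -0.16). Ppp1r3a, which targets protein phosphatase 1 to glycogen and the sarcoplasmic reticulum of muscle, was higher in both mutants, with 10 counts in NTG against 34 in dC10mut (2.83-fold, log2 interval 0.49 to 2.72) and 23 and 44 in control and tt (0.84, 0.09 to 1.65). Prkar2a, a regulatory subunit of protein kinase A, held 6 counts in control and 23 in tt (1.77, 0.52 to 3.44). Pde3a, a phosphodiesterase that limits cyclic AMP, held 11 and 27 (1.18, 0.15 to 2.37), while NTG held 22 and dC10mut 21. Akap7, an anchor of protein kinase A, was also 2-fold apart in the dilated pair, at 0 counts in control and 6 in tt.

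In the mitochondrial list, the inner membrane gene Letm1 was lower in tt (49 and 30 counts, log2 ratio -0.78, -1.50 to -0.11), and the other named genes Vdac2 and Micu2 did not differ beyond counting error. Among calcium-binding proteins of the reticulum, calreticulin (Calr) held 78 counts in NTG and 120 in dC10mut, and 58 in control and 83 in tt, with intervals that spanned equality in both mutant pairs, and Pdia3, opposite Catsper2, was lower in tt (43 and 26 counts, -0.80, -1.57 to -0.07). S100a6 held 1, 3, 10 and 3 counts, and Saraf, which restrains store-operated entry, 26, 27, 29 and 27.

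Of the 8 myofilament targets of calcium, 5 held at least 10 counts in a library, and Tnnt2, Tpm1 and Myl3 held 0 throughout. Tnnc1, the cardiac troponin C that binds the released calcium, had 568 counts in dC10mut against 357 in NTG (log2 ratio 0.45, 0.25 to 0.64), and 613 in control and 413 in tt (-0.65, -0.84 to -0.47). Its pattern of a higher count in dC10mut and a lower one in tt was that of S100a1. Mybpc3, the gene altered in both models, held 344 and 368 counts in the hypertrophic pair (-0.13, -0.34 to 0.09) and 266 and 412 in the dilated pair (0.55, 0.32 to 0.78), a direction shared with Ryr2 and Hrc. The files do not count alleles, so this row does not check the genotypes. Mylk3, the cardiac myosin light chain kinase, held 5, 12, 3 and 9 counts.

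Markers of other cell types also moved with the groups. The sums given here are raw counts and are not scaled to a common depth. The 8 endothelial markers summed to 228 counts in NTG and 236 in dC10mut, and 264 in control and 137 in tt, with Pecam1, Tek and Egfl7 at 0. Fabp4 held most of these (154, 184, 203 and 102). Cdh5 was 1.88-fold lower in dC10mut than in NTG (log2 interval -1.72 to -0.15), where the intervals of Kdr and Fabp4 spanned equality. In tt, Kdr and Fabp4 were lower than in control (2.52-fold and 2.10-fold), and the interval of Cdh5 spanned equality. The 8 fibroblast markers summed to 51, 41, 71 and 39. Col1a2 (11 counts in control and 2 in tt) and Col3a1 (34 and 18) were lower in tt, and the interval of Lum spanned equality. The 10 cardiac muscle markers summed to 4745, 6706, 5200 and 4914, with Tnnt2 and Myl3 at 0. Myl2 alone held 2405, 3520, 2556 and 2453 of the cardiac muscle counts. After scaling, Actc1, Tnni3 and Myl2 were higher in dC10mut than in NTG. Actn2 was lower (log2 ratio -0.40, -0.65 to -0.16), and the interval of Ckm spanned equality. In tt, Tnni3 (log2 ratio -0.32, -0.46 to -0.18), Myl2 (-0.14, -0.22 to -0.06) and Actn2 (-0.25, -0.49 to -0.003) were lower than in control. The intervals of Actc1, Ckm and Ttn spanned equality there. The 7 macrophage markers summed to 18, 48, 46 and 18, with Adgre1 at 0. The 1 marker of this list with at least 10 counts, the lysozyme gene Lyz2, was 3.79-fold higher in dC10mut than in NTG (28 and 6 counts, log2 interval 0.70 to 3.56), 5.45-fold lower in tt than in control (5 and 28, -4.30 to -1.18) and 3.90-fold higher in control than in NTG. The 7 pericyte and smooth muscle markers summed to 99, 172, 157 and 129, with Myh11, Pdgfrb and Abcc9 at 0. Among them Acta2 was 3.26-fold higher in dC10mut than in NTG (24 and 6 counts, 0.45 to 3.36) and Rgs5 1.58-fold higher (120 and 65, 0.21 to 1.12), and both had intervals that spanned equality in the dilated pair. The remaining marker of this list with at least 10 counts, Tagln, held 26 counts in dC10mut and 28 in NTG (log2 ratio -0.32, -1.16 to 0.49). Its interval spanned equality in the dilated pair as well. The raw macrophage, pericyte and smooth muscle, cardiac muscle and endothelial sums were all higher in dC10mut and lower in tt than in their controls. The fibroblast sum was lower in both mutants. S100a1 was higher in dC10mut and lower in tt as well, but its interval in the dilated pair spanned equality. In whole-heart RNA fewer cells of a type and less RNA per cell cannot be told apart, and the part of these shifts in the members' values was not tested.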

How the data were processed

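Heart RNA was measured in 4 libraries, 1 per group. The tools named per the submitters' processing notes are STAR and HTSeq, and the build is mm10. Neither their versions nor how reads were assigned to transcripts or strands is given in the sources used here. Each deposited value is a raw count for a RefSeq transcript. Of 41449 transcripts, 41252 matched a symbol in RefSeq's GRCm38.p6 table, and the other 197 stayed in as rows of their own, with at most 2.21% of a library's counts. Counts were summed per symbol (25044 rows, 9344 with a count). Positions, exons and the 2 printed sequences came from GENCODE M21 (GRCm38).

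Counts were scaled with TMM factors (edgeR 4.0.16) and the mean library size. Ratios used a prior count of 0.5 and exact Clopper-Pearson conditional binomial 95% intervals. The 95% intervals of differences between the 2 pairs' ratios were normal approximations from a gene's counts in the 4 libraries, each with 0.5 added. PCR copies are not independent molecules, so intervals and floors (3 counts) cover counting error only. For a difference shared by both mutants, edgeR's quasi-likelihood fit had a term for the pair, kept genes that reached 1 CPM in 2 or more libraries, and adjusted p-values by Benjamini-Hochberg over all of these. DESeq2 1.42.0 was an alternative. The ratio intervals and the edgeR fit were tested on simulated data. Alternatives covered scaling, transcripts summed, prior count, filters and size of the call. Named list genes were up to 3 per list by size of ratio in a mutant pair, at 10 or more counts; Akap7, Fkbp1a and Fkbp1b, the length classes, the 18 heart muscle genes and the opposite-strand examples were picked after values were seen. The members and lists were chosen with earlier results of these data known. Some genes of the lists that this rule names are not reported here.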

Additional observations from a re-analysis of the deposited data

Results flagged for a closer look

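With TMM scaling, ratios of opposite sign in the 2 mutant pairs drew attention to 3 genes. The log2 ratio of S100a1 differed by 0.97 (0.54 in dC10mut over NTG, -0.43 in tt over control), that of Ryr2 by -0.49 (-0.06 and 0.43) and that of Hrc by -0.38 (-0.07 and 0.30). Each pair is a single library against a single library, so the difference was not tested. With library totals the ratios of Ryr2 and Hrc in dC10mut over NTG were 0.02 and 0.01, the same sign as in tt over control, and S100a1 kept opposite signs under every scaling tried.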

How the results depend on the processing

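Scaling by library totals or by DESeq2 size factors, protein-coding transcripts alone, the most counted transcript alone, a prior count of 2 and TMM factors from genes without an opposite-strand exon (the last chosen after seeing the data) left all 72 recomputed ratios of Hrc, Ryr2, S100a1 and Casq1 within their counting intervals, with a largest shift of 0.19. Within those intervals, library totals turned the sign of Ryr2 and Hrc in dC10mut over NTG (0.02 and 0.01) and of Ryr2 in control over NTG (0.08). Of 116 recomputed values 115 stayed so or within 1.5 times. The exception was the number of members apart in tt against control, which was 1 in place of 0 when the size of the call was 1.5-fold, since the lower size admits Casq1. The common test without the replicate block called 0 members, as it did with the block, and 1 gene in all in place of 13; no replicate number in the labels pairs the libraries, and the block is the mutant with its control. edgeR called 9 genes with library totals, 11 with every counted gene and 1 at 10 counts in at least 2 libraries, and DESeq2 called 0; the adjusted p of Casq1 ranged from 0.618 to 0.999, and its unadjusted p was above 0.05 in each of these alternatives. No library could be left out, since each group has 1. Casq1, Pln and Atp2a2 held 28 counts or fewer in each library. How far depth or the counting per transcript limits these rows was not tested.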
